A study of Mus musculus with 30 samples.

Results

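The genes described here are 59 genes of DNA replication and mitosis, of 49315 genes counted, in bulk RNA sequencing of 2 mouse tumour cell lines. They were taken by name from a list of S-phase and G2/M genes, and all 59 were found, counted and passed the filter on low counts. The 29 S-phase genes and the 30 mitotic genes are described apart. B16F10 is a melanoma line and 6694c2 is a pancreatic ductal adenocarcinoma (PDAC) line, both of C57BL/6 background. Per the study's methods 6694c2 came from female mice that carry, among other alleles, a floxed p53 allele, Pdx-cre (active in pancreatic cells) and a YFP reporter. Cells in culture received 100 ng/mL of IFNγ, 1000 U/mL of IFNβ, 225 μg/mL of a STING agonist, or no agent (vehicle), and RNA was taken at 24 h. Each of the 8 groups had 3 libraries, and the labels do not say whether these came from separate cultures, so p-values measure the spread between libraries, which may be technical. The study sequenced the cells to learn what the STING agonist does to tumour cells themselves.

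Before a cell copies its DNA, loading factors place the MCM helicase on origins, and cyclin E with its kinase and the E2F factors switch on the genes that unwind, copy and repackage the genome. Transcripts of mitosis follow in G2 under other regulators, and code for cyclin B and Cdk1, the kinases that build the spindle, the kinetochore that ties chromosomes to it, and the ubiquitin ligase that ends mitosis. IFNγ and IFNβ signal through separate receptors. STING is a sensor that leads to IFNβ production.

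The libraries held 15543131 to 32266795 reads assigned to genes, and each S-phase or mitotic gene had at least 109 reads in every library. Levels are CPM, the reads of a gene scaled to the library's TMM-normalized size (TMM is edgeR's scaling between libraries). TMM factors were computed within each line, and over all 24 libraries for levels per kb and tests between the lines. CPM without a per kb unit are on a separate scale for each line. A gene was called where edgeR's quasi-likelihood test gave a Benjamini-Hochberg adjusted p-value under 0.05 over the 21138 genes tested. Each treated group of a line was compared with the same 3 vehicle libraries. As a check of the treatments, Isg15, an interferon-induced gene, was raised by IFNγ and IFNβ in B16F10 cells (log2 fold change 2.86 and 3.88) and in 6694c2 cells (4.89 and 8.60). With STING agonist Isg15 rose in B16F10 cells (log2 fold change 1.93) and was not called in 6694c2 cells (0.61, edgeR adjusted p = 0.222). Of 6 interferon response genes on the list for this check, 5, 6 and 5 were higher with IFNγ, IFNβ and STING agonist in B16F10 cells, and in 6694c2 cells 6 with each interferon. With STING agonist 2 of the 6 were higher in 6694c2 cells, Irf7 (1.62, edgeR adjusted p = 2.91e-06) and Ifit1 (0.62, edgeR adjusted p = 0.0339), and Gbp2 was lower (-1.41, edgeR adjusted p = 7.19e-12). All 10 melanocyte markers were lower in 6694c2 than in B16F10 vehicle cells, and 8 of 10 epithelial markers were higher. Each line held traces of the other line's markers. In B16F10 libraries the summed epithelial markers were 0.119 to 0.17% of their 6694c2 vehicle level with vehicle, 0.146 to 0.329% with IFNγ, 0.159 to 0.458% with IFNβ and 0.841 to 1.10% with STING agonist. In 6694c2 libraries the summed melanocyte markers were 0.411 to 0.418% of their B16F10 vehicle level with vehicle, 0.173 to 0.619% with IFNγ, 0.124 to 0.191% with IFNβ and 0.0904 to 0.108% with STING agonist. The part of these traces in the results was not tested.

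In vehicle cells of both lines the most abundant S-phase transcripts per kilobase were those of Pcna, the sliding clamp of the replication fork, and Rrm2, a subunit of ribonucleotide reductase, which makes the building blocks of DNA. Pcna stood at 203 ± 4.76 CPM per kb in B16F10 and 193 ± 8.87 in 6694c2 cells, and Rrm2 at 202 ± 6.25 and 262 ± 6.49 (SD, n = 3 each). The median of the S-phase genes was 22.9 CPM per kb in B16F10 and 17.8 in 6694c2 cells. Among mitotic transcripts, Cdc20, which activates the anaphase ubiquitin ligase, led in both lines with 92.2 ± 6.6 and 148 ± 3.77 CPM per kb. Between the lines, 15 S-phase genes were higher and 8 lower in 6694c2 vehicle cells, against 28.7% and 29.3% of all genes tested, and 18 mitotic genes were higher and 6 lower. The S-phase gene that differed most was Ccne1, cyclin E1 (ENSMUSG00000002068, chr7:38097984-38107534), at 41.3 ± 0.72 CPM per kb in B16F10 and 2.68 ± 0.263 in 6694c2 cells (SD, n = 3 each). It was 15.4-fold lower in 6694c2 cells (log2 fold change -3.94, SE 0.098, edgeR adjusted p = 1.41e-31). Ccne2, the other cyclin E gene (ENSMUSG00000028212, chr4:11191351-11204779), went the other way, at 11.5 ± 0.834 CPM per kb in B16F10 and 24.65 ± 0.724 in 6694c2 cells (SD, n = 3 each, log2 fold change 1.10, edgeR adjusted p = 5.92e-15). Among those of mitosis, Gtse1, whose product binds microtubules and p53, was lower in 6694c2 cells (log2 fold change -1.76, edgeR adjusted p = 5.39e-24), and Top2a, topoisomerase II alpha, was 2.44-fold higher (log2 fold change 1.29, edgeR adjusted p = 1.2e-21).

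The promoters of the S-phase and the mitotic genes are shown because known regulators of the 2 groups read different short motifs. A window in RefSeq (GRCm38.p6), of 300 bases from 250 before to 50 after a start, was found for 49 of the 59 genes. The 4 E2F octamers (TTTCCCGC, TTTGGCGC, TTTCGCGC and TTTGCCGC, both strands) were searched, and 10 of 23 S-phase genes (43.5%) and 1 of 26 mitotic genes (3.85%) held at least 1 of them, against 2.6% of 27025 genes with a window. The CHR element TTTGAA (both strands), known from genes of G2 and mitosis, was in 19 of 26 mitotic genes (73.1%) and 4 of 23 S-phase genes (17.4%), against 20.2% of all. The CCAAT box (CCAAT, both strands) was in 16 of 23 S-phase genes (69.6%) and 20 of 26 mitotic genes (76.9%), against 41.1%. The interferon motifs were in few genes, and whether their shares differ from those of all genes was not tested. The core of the ISRE (GAAA, any 2 bases, GAAA) was in 1 S-phase gene (4.35%) and 0 mitotic genes, against 3.99% of all genes. TTCNNNGAA, the GAS element, was in 2 S-phase genes (8.7%) and 1 mitotic gene (3.85%), against 9.55%. Of the other replication and mitotic genes counted further below, 40 and 46 have a window. E2F octamers were in 11 (27.5%) and 6 (13%) of them, and TTTGAA in 5 (12.5%) and 29 (63%). CCAAT was in 21 (52.5%) and 33 (71.7%), the ISRE core in 4 (10%) and 5 (10.9%), and TTCNNNGAA in 4 (10%) and 4 (8.7%). A match is a description of the letters and does not show that a factor binds.

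The sequences before the start (200 bases, less any inside the gene in RefSeq or as counted here) are printed 5′ to 3′ on the gene's strand, from RefSeq on GRCm38.p6, for the 3 S-phase genes with the smallest p-values against vehicle that have a window. Mcm6 was added after its matches were seen, as the S-phase gene that rose most in 6694c2 cells. Where a gene has several starts in RefSeq, the most upstream is shown. The E2F octamer counted for Uhrf1 (TTTCGCGC) lies in the window of another start and is not in its stretch. Capitals mark CCAAT (or ATTGG, its reverse), TTTGAA in Mcm2, and TTTGGCGC and GCGCGAAA, which share letters, in Mcm6.
Rrm2 (chr12:24708054-24708240, plus strand): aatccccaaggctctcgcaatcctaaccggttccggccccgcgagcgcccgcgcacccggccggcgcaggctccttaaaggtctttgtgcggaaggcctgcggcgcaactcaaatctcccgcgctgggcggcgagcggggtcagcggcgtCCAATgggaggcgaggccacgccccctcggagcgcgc
Uhrf1 (chr17:56303137-56303320, plus strand): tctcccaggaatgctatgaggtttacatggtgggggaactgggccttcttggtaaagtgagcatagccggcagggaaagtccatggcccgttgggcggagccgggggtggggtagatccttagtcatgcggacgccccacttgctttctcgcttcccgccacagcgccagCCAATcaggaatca
Mcm2 (chr6:88898781-88898980, minus strand): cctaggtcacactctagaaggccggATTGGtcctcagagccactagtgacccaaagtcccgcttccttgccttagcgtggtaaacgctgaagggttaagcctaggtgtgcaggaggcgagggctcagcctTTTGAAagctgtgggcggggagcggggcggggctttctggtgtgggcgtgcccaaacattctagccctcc
Mcm6 (chr1:128359706-128359905, minus strand): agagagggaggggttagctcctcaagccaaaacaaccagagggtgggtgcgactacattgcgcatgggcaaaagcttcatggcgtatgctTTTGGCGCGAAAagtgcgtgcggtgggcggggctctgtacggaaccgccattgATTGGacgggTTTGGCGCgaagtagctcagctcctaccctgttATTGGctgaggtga

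The same stretch is shown for the 3 mitotic genes with the smallest p-values and for Cdk1, which was added as the only mitotic gene with an E2F octamer. Capitals mark CCAAT boxes and TTTGAA, and in Cdk1 also TTTCGCGC. The CCAAT matches of Cenpa lie inside the gene as counted, so its shorter stretch shows none.
Ccnb2 (chr9:70421555-70421754, minus strand): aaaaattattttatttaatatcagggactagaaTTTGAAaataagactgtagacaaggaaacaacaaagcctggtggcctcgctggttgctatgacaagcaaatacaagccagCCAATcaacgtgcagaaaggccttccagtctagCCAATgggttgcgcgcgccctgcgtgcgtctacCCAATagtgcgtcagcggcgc
Cenpa (chr5:30666686-30666776, plus strand): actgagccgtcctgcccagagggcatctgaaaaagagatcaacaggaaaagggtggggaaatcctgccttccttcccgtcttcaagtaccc
Mki67 (chr7:135716451-135716579, minus strand): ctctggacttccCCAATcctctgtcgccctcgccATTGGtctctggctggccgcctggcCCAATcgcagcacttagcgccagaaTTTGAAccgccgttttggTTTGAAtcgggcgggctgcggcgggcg
Cdk1 (chr10:69352939-69353112, minus strand): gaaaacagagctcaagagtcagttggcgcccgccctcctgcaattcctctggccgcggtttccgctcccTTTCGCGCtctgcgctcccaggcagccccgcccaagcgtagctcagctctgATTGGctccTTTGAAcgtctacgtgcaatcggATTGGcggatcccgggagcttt

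In B16F10 cells S-phase transcripts fell with both interferons, and none rose. With IFNγ 24 of 29 were lower, against 10.8% of all genes tested that were called lower, and their median change was -0.35 on the log2 scale, 21.8% below vehicle, against a median of 0 over all genes. With IFNβ 26 of 29 were lower, against 11.2% of all genes, and the median was -0.31, or 19.4% below vehicle. No S-phase gene fell over 2-fold. The 5 that were not called lower with IFNγ were Cdc45, Rfc2, Fen1, Pola1 and Clspn, and those with IFNβ were Cdc45, Fen1 and Ccne1. In bulk RNA, fewer cells in S phase and less RNA per cell cannot be told apart.

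**Figure D1:**
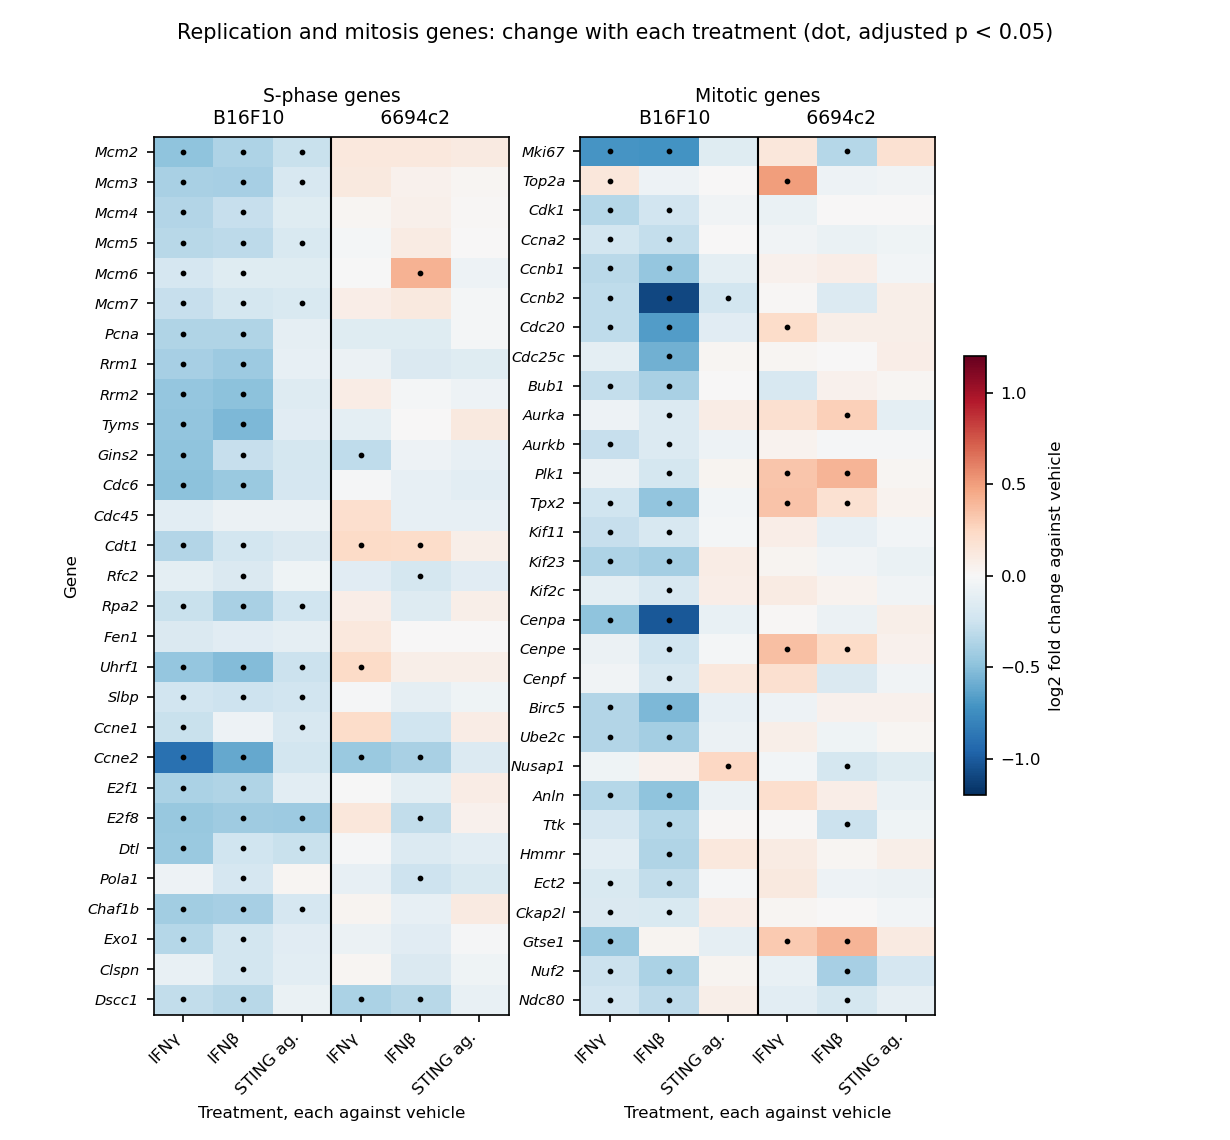
Heat map of the log2 fold change against vehicle (colour) of 29 S-phase genes (left) and 30 mitotic genes (right), with genes in rows and the 3 treatments of each line in columns. A dot marks an edgeR adjusted p-value under 0.05. In B16F10 cells both interferon columns are mostly blue with dots, the STING agonist column has 11 dots among the S-phase genes and 2 among the mitotic genes, and the 6694c2 STING agonist columns have 0.

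All 6 genes of the MCM helicase were lower with each interferon in B16F10 cells. Mcm2 (ENSMUSG00000002870, chr6:88883474-88898780) stood at 559.9, 551 and 555 CPM with vehicle, 416, 374 and 402 CPM with IFNγ and 420.1, 431 and 439 CPM with IFNβ. Every treated library lay below every vehicle library (log2 fold change -0.48, SE 0.052, edgeR adjusted p = 2.89e-17 for IFNγ, and log2 fold change -0.37, edgeR adjusted p = 1.1e-10 for IFNβ). The other subunits ranged from -0.39 (Mcm3) to -0.20 (Mcm6) with IFNγ and from -0.40 to -0.14 for the same genes with IFNβ. Mcm5 changed by -0.33 with IFNγ (edgeR adjusted p = 7.41e-08) and -0.31 with IFNβ (edgeR adjusted p = 3.67e-07). Of the factors that load and start the helicase, Cdc6 fell from 54.1 ± 0.683 CPM to 38.4 ± 2.5 CPM with IFNγ and 39.8 ± 3.92 CPM with IFNβ (SD, n = 3 each), log2 fold changes of -0.49 and -0.44 (edgeR adjusted p = 1.1e-09 and 4.72e-08). Cdt1, its partner in loading (-0.35 and -0.22), and Gins2, a subunit of the active helicase (-0.48 and -0.27), were lower with each. Of the annotated exonic length of Gins2, 67.3% overlaps a gene on the opposite strand, and the strand setting of the counts is not given in the sources used here.

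The 3 genes of nucleotide supply were among those that fell most. Rrm2 (ENSMUSG00000020649, chr12:24708241-24714146) stood at 612, 608 and 582 CPM with vehicle, 448, 404 and 452 CPM with IFNγ and 458, 408 and 415 CPM with IFNβ. The groups did not overlap (log2 fold change -0.47, edgeR adjusted p = 2.62e-16 for IFNγ, and log2 fold change -0.49, SE 0.052, edgeR adjusted p = 9.46e-18 for IFNβ). Rrm1, the other subunit of ribonucleotide reductase, changed by -0.40 and -0.43, with edgeR adjusted p = 3.85e-14 for IFNβ. Tyms, which makes thymidylate, fell by 0.47 and 0.54 on the log2 scale (edgeR adjusted p = 1.76e-11 and 9.39e-15). Of the fork genes, Pcna went from 523 ± 14.8 to 408 ± 25.1 CPM with IFNγ and 408 ± 10.9 CPM with IFNβ (SD, n = 3 each, edgeR adjusted p = 4.55e-10 and 4.09e-10). Of the 8 fork and repair genes, 4 were lower with IFNγ and 7 with IFNβ. Fen1, the flap nuclease of the lagging strand, was not called with either interferon, and 84.2% of its exonic length overlaps genes on the opposite strand.

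The chromatin genes Uhrf1, Chaf1b and Slbp were lower with each interferon. Uhrf1 (ENSMUSG00000001228, chr17:56303321-56323486), which keeps DNA methylation on copied DNA, stood at 211, 225 and 209 CPM with vehicle, 159, 146 and 161 CPM with IFNγ and 144, 161 and 143 CPM with IFNβ. The treated libraries lay below all vehicle libraries (log2 fold change -0.47, edgeR adjusted p = 4.34e-14 for IFNγ, and log2 fold change -0.52, edgeR adjusted p = 3.34e-17 for IFNβ). The largest change of an S-phase gene with each interferon was that of Ccne2. Of its exonic length 17.4% overlaps a gene on the opposite strand. Ccne2 stood at 45.1, 39.7 and 44.6 CPM with vehicle, 23.4, 20.5 and 25.3 CPM with IFNγ and 32.8, 28.3 and 23.2 CPM with IFNβ. The groups did not overlap (log2 fold change -0.90, SE 0.083, edgeR adjusted p = 1e-22 for IFNγ, and log2 fold change -0.62, edgeR adjusted p = 4.95e-12 for IFNβ). Ccne1 fell with IFNγ from 118 ± 1.42 to 97.6 ± 6.99 CPM (SD, n = 3 each, edgeR adjusted p = 8.36e-05). With IFNβ it was 113 ± 5.4 CPM and not called (95% interval of the log2 fold change -0.18 to 0.05, edgeR adjusted p = 0.522). E2f1, an activator of S-phase genes, fell by 0.38 with IFNγ and by 0.36 with IFNβ (log2 scale, edgeR adjusted p = 2.41e-07 and 1.37e-06), and E2f8, a repressor of the same family that is itself made in S phase, by 0.45 and 0.43.

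**Figure D2:**
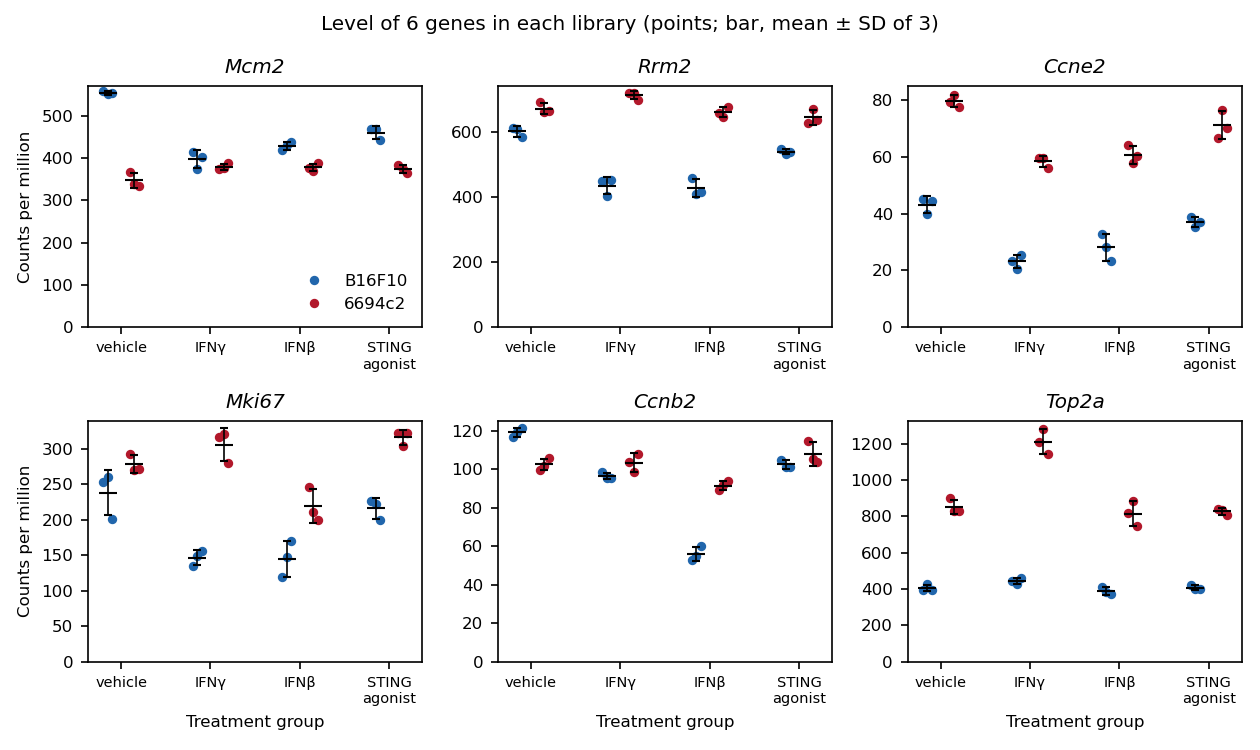
Levels in CPM (y axis, from 0) of Mcm2, Rrm2, Ccne2, Mki67, Ccnb2 and Top2a in every library (points) of the 4 treatment groups (x axis) of B16F10 (blue) and 6694c2 cells (red), with the mean ± SD of 3. In B16F10 cells Ccnb2 with IFNβ (53.0 to 60.0 CPM) lies below IFNγ (95.6 to 98.3 CPM) and vehicle (117 to 122 CPM), and in 6694c2 cells Top2a with IFNγ (1144 to 1280 CPM) lies above all other groups.

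Mitotic transcripts also fell in B16F10 cells with both interferons. With IFNγ 20 of 30 were lower (10.8% of all genes) and 1 was higher (12% of all genes), with a median change of -0.25 on the log2 scale, 15.9% below vehicle. The gene that rose was Top2a, which untangles chromosomes, from 395, 425 and 393 to 444, 429.6 and 462 CPM (log2 fold change 0.14, SE 0.052, edgeR adjusted p = 0.0399). This call was lost in 4 of 18 alternatives, all of which left out a vehicle or IFNγ library. With IFNβ 27 of 30 were lower (11.2% of all genes) and 0 higher, with a median of -0.33, 20.3% below vehicle, against a median of 0.02 over all genes. The 3 not called with IFNβ were Top2a, Nusap1 and Gtse1.

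Ccnb2, cyclin B2 (ENSMUSG00000032218, chr9:70407692-70421547), and Cenpa, the histone that marks centromeres (ENSMUSG00000029177, chr5:30666777-30674830), fell most with IFNβ, by over 2-fold. Ccnb2 stood at 117, 119 and 122 CPM with vehicle, 98.3, 95.7 and 95.6 CPM with IFNγ and 53.0, 54.8 and 60.0 CPM with IFNβ. The 3 groups were apart from each other (log2 fold change -0.30, edgeR adjusted p = 1.13e-05 for IFNγ, and log2 fold change -1.09, SE 0.063, edgeR adjusted p = 4.81e-49 for IFNβ). Cenpa stood at 140.1, 125 and 135 CPM with vehicle, 96.3, 88.3 and 101 CPM with IFNγ and 65.3, 62.8 and 68.9 CPM with IFNβ, again with no overlap (log2 fold change -0.49, edgeR adjusted p = 3.26e-13 for IFNγ, and log2 fold change -1.02, edgeR adjusted p = 2.68e-45 for IFNβ). Mki67, the proliferation marker Ki-67 (ENSMUSG00000031004, chr7:135689784-135716361), stood at 253, 259.7 and 201 CPM with vehicle, 135, 148 and 156 CPM with IFNγ and 119, 147 and 169 CPM with IFNβ. The vehicle libraries were spread over a wide range and lay above all treated ones (log2 fold change -0.70, edgeR adjusted p = 1.78e-26 for IFNγ, and log2 fold change -0.71, edgeR adjusted p = 4.81e-27 for IFNβ).

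Of the cyclins and their kinase, Cdk1 fell by 0.34 with IFNγ and by 0.23 with IFNβ on the log2 scale (edgeR adjusted p = 2.92e-08 and 0.00027). Ccnb1, cyclin B1, went from 225 ± 2.66 CPM to 179 ± 13.2 and 163 ± 7.12 CPM (SD, n = 3 each, edgeR adjusted p = 1.21e-07 and 3.44e-14). Cdc25c, the phosphatase that activates Cdk1, was lower with IFNβ (log2 fold change -0.57, edgeR adjusted p = 1.08e-09) and not called with IFNγ (-0.11). Cdc20 was at 196, 186 and 172 CPM with vehicle, 149, 139 and 160.2 CPM with IFNγ and 105, 117 and 126 CPM with IFNβ (log2 fold change -0.30, edgeR adjusted p = 2.48e-06 and log2 fold change -0.67, edgeR adjusted p = 4.66e-25). All 4 checkpoint and anaphase genes (Cdc20, Ube2c, Bub1 and Ttk) were lower with IFNβ and 3 of them with IFNγ. Of the spindle kinases, Aurkb was lower with each interferon (-0.28 and -0.16), and its call with IFNβ was lost in 5 of 18 alternatives. Plk1 was 175 ± 4.29 CPM with vehicle and 151 ± 9.49 CPM with IFNβ (SD, n = 3 each, log2 fold change -0.22, edgeR adjusted p = 0.00119), and was not called with IFNγ (-0.07, edgeR adjusted p = 0.421). Aurka changed by -0.17 with IFNβ, a call lost in 3 of 18 alternatives, and was not called with IFNγ. Of the 8 spindle and microtubule genes, 5 were lower with IFNγ and 6 with IFNβ, among them Tpx2 (-0.24 and -0.48), and of the 5 centromere and kinetochore genes, 3 and 5. Among these, the calls lost most often were Ckap2l with IFNγ (9 of 18 alternatives) and Ckap2l, Kif2c and Cenpf with IFNβ (4 of 18 each). Birc5, the survivin of the kinase complex on chromosomes, changed by -0.35 and -0.54. The cytokinesis genes Anln and Ect2 were lower with each, Anln with log2 fold changes of -0.34 and -0.49 (edgeR adjusted p = 2.86e-08 and 1.13e-15).

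The 2 interferons were also compared directly in B16F10 cells. Of the S-phase genes 0 were higher and 3 (10.3%) lower with IFNγ than with IFNβ, against 7.85% and 6.65% of all genes tested. With the filterByExpr minimum, which leaves out more genes of low count, these shares of all genes were 12.1% and 10.3%. The 3 were Ccne1 (log2 fold change -0.21, edgeR adjusted p = 0.00662), Ccne2 (log2 fold change -0.28, edgeR adjusted p = 0.00907) and Dtl, which marks replication proteins for removal (log2 fold change -0.21, edgeR adjusted p = 0.0286). This count was 0 without IFNγ replicate 2, 1 without IFNβ replicate 1 and 1 with DESeq2. Of the mitotic genes 8 were higher and 1 lower with IFNγ, and 14 were called without IFNβ replicate 1. Those that differed most were Ccnb2 (log2 fold change 0.79, edgeR adjusted p = 1.58e-28), Cenpa (log2 fold change 0.53, edgeR adjusted p = 1.02e-14) and Cdc20 (log2 fold change 0.36, edgeR adjusted p = 3.06e-08). Gtse1 (ENSMUSG00000022385, chr15:85859707-85876572) went the other way, at 133, 113 and 129 CPM with IFNγ, 171, 173 and 179.5 CPM with IFNβ and 169, 176 and 165 CPM with vehicle (log2 fold change -0.48, SE 0.057, edgeR adjusted p = 5.06e-14). The IFNγ libraries lay below all libraries of the other 2 groups.

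With STING agonist the calls in B16F10 cells were mostly S-phase genes. Of the S-phase genes 11 were lower and 0 higher, against 1.53% of all genes called lower, and the median was -0.17 on the log2 scale, 11.2% below vehicle. Of the mitotic genes 1 was lower and 1 higher (1.93% of all genes), and the median was 0.00. The difference between the 2 groups of genes was not tested. Mcm2 was at 470.0, 469 and 443 CPM, below all 3 vehicle libraries (log2 fold change -0.27, SE 0.052, edgeR adjusted p = 3.68e-05). E2f8 was at 28.8, 28.9 and 29.7 CPM with vehicle and 20.9, 22.6 and 20.9 CPM with STING agonist (log2 fold change -0.44, edgeR adjusted p = 0.000191). Uhrf1 was at 180.1, 183 and 175 CPM (log2 fold change -0.26, edgeR adjusted p = 0.000403) and Dtl changed by -0.26 (edgeR adjusted p = 0.014). The other 7 called genes were Mcm3, Mcm5, Mcm7, Rpa2, Slbp, Ccne1 and Chaf1b, with log2 fold changes of -0.18 to -0.24. Mcm5 (-0.18, edgeR adjusted p = 0.0365) and Ccne1 (-0.19, edgeR adjusted p = 0.0495) were close to the threshold. Mcm2, Uhrf1 and E2f8 were called in all 18 alternatives. The count was 3 without vehicle replicate 1, 5 without vehicle replicate 2 or 3 or STING agonist replicate 2, and 4 without STING agonist replicate 3.

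Of the mitotic genes, Ccnb2 was lower at 105, 101 and 101 CPM (log2 fold change -0.22, edgeR adjusted p = 0.0174), and Nusap1, a spindle protein that binds microtubules, was higher, at 78.3, 77.9 and 72.3 CPM with vehicle and 94.9, 86.9 and 89.4 CPM with STING agonist (log2 fold change 0.25, edgeR adjusted p = 0.00859). The call of Ccnb2 was lost without vehicle replicate 2 or 3 or STING agonist replicate 2 or 3, and that of Nusap1 without vehicle replicate 3 or STING agonist replicate 1. Without vehicle replicate 3 Mki67 was called lower, and it was then the 1 mitotic gene called. Pcna (-0.11), Cdc6 (-0.20), Ccne2 (-0.22), E2f1 (-0.13), Mki67 (-0.14), Top2a (0.01), Cdk1 (-0.04), Ccnb1 (-0.12) and Plk1 (0.03) were not called. The 95% intervals of all 30 mitotic genes lay between -0.34 and 0.37.

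**Figure D3:**
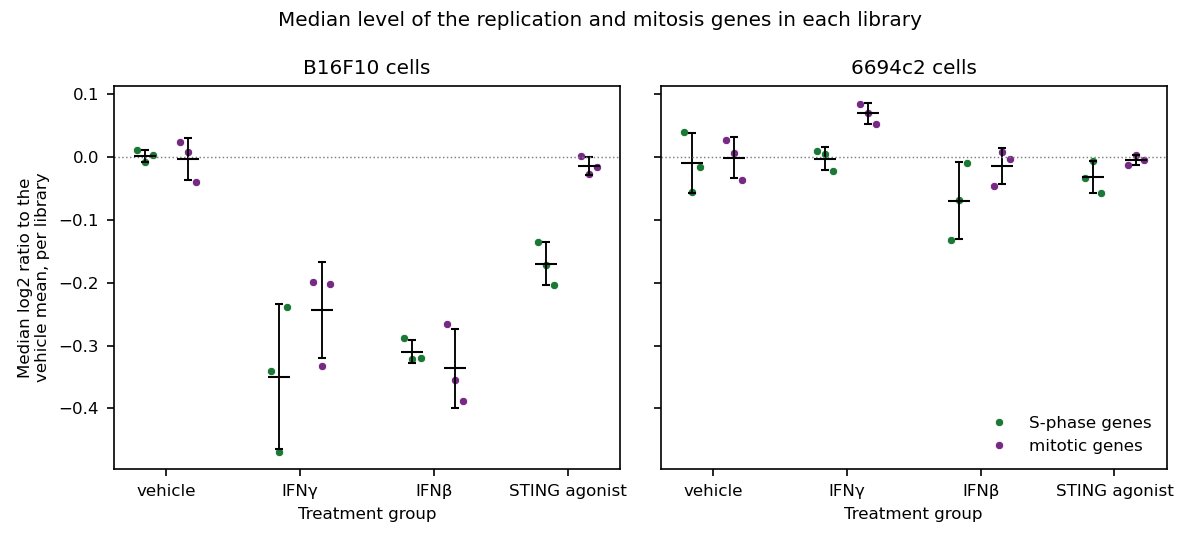
Median log2 ratio to the vehicle mean (y axis) of the S-phase genes (green) and the mitotic genes (purple) in each library (points), by treatment group (x axis), with the mean ± SD of 3 libraries. In B16F10 cells the S-phase medians with IFNγ are spread from -0.47 to -0.24, those with STING agonist from -0.20 to -0.14, and all 6694c2 medians lie between -0.13 and 0.09.

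In 6694c2 cells, by contrast, the same genes moved little and in both directions. With IFNγ 3 S-phase genes (10.3%) were lower and 2 (6.9%) higher, against 5.66% and 7.89% of all genes tested, and the median was -0.01. With the filterByExpr minimum these shares of all genes were 9.34% and 12.2%, near or above those of the S-phase genes. Without vehicle replicate 2, 3 or IFNγ replicate 3 the count of called S-phase genes was 1, 3 and 2. The 3 lower genes were Ccne2, Gins2 and Dscc1, which helps to load the clamp. Ccne2 stood at 79.3, 81.9 and 77.7 CPM with vehicle and 59.5, 59.6 and 56.0 CPM with IFNγ, without overlap (log2 fold change -0.45, SE 0.072, edgeR adjusted p = 5.92e-06), and was called in all 18 alternatives. Gins2 changed by -0.30 (edgeR adjusted p = 0.00635) and Dscc1 by -0.38 (edgeR adjusted p = 0.00836). The higher ones were Cdt1 (log2 fold change 0.23, edgeR adjusted p = 0.0342) and Uhrf1 (log2 fold change 0.23, edgeR adjusted p = 0.0272), and the Uhrf1 libraries overlapped those of vehicle. Each of these 2 calls was lost in 4 of 18 alternatives, all of which left out a vehicle or IFNγ library. Mcm2 was at 368, 339 and 335 CPM with vehicle and 375, 376 and 388 CPM with IFNγ and was not called, although the 3 treated libraries lay above all vehicle libraries (unadjusted 95% interval of the log2 fold change 0.00 to 0.26, edgeR adjusted p = 0.212). The intervals were -0.15 to 0.10 for Mcm5, -0.27 to -0.01 for Pcna, -0.17 to 0.14 for Cdc6 and -0.19 to 0.17 for E2f1, and Ccne1 with its few reads had the widest, -0.08 to 0.51.

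Of the mitotic genes of 6694c2 cells, 0 were lower and 6 (20%) higher with IFNγ, with a median of 0.06. Of all genes tested 5.66% were lower and 7.89% higher, and 12.2% were higher with the filterByExpr minimum. Top2a (ENSMUSG00000020914, chr11:98992943-99024189) stood at 898, 832 and 829 CPM with vehicle and 1209, 1279.5 and 1144 CPM with IFNγ, the largest change of a mitotic gene against vehicle in this line (log2 fold change 0.51, SE 0.065, edgeR adjusted p = 6.74e-08). Tpx2, which activates Aurora A on the spindle, was at 194, 187 and 179 CPM with vehicle and 236, 250.1 and 225 CPM with IFNγ (log2 fold change 0.34, edgeR adjusted p = 9.41e-05). Cenpe, a kinetochore motor (log2 fold change 0.36, edgeR adjusted p = 0.000115), and Plk1 (log2 fold change 0.34, edgeR adjusted p = 0.000275) rose by as much. Gtse1 (0.32) and Cdc20 (0.22) made up the 6. Mki67 (0.14), Cdk1 (-0.08) and Ccnb1 (0.05) were not called, with upper interval bounds of 0.28, 0.06 and 0.18.

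With IFNβ 5 S-phase genes (17.2%) of 6694c2 cells were lower and 2 (6.9%) higher, against 7.86% and 10.4% of all genes, and the median was -0.10. With the filterByExpr minimum these shares of all genes were 14.2% and 15.2%, near or above those of the S-phase genes. Without vehicle replicate 2 or 3 the count of called S-phase genes was 4, it was 4 in a fit on the 2 groups alone and 11 with DESeq2. Mcm6 (ENSMUSG00000026355, chr1:128331590-128359664) rose while no other MCM gene was called. It stood at 360.4, 328 and 364 CPM with vehicle and 433, 514 and 459.9 CPM with IFNβ (log2 fold change 0.42, SE 0.067, edgeR adjusted p = 5.36e-06), whereas in B16F10 cells it fell slightly with this agent (log2 fold change -0.14, edgeR adjusted p = 0.0373, a call lost in 5 of 18 alternatives). Cdt1 was also higher (log2 fold change 0.22, edgeR adjusted p = 0.0365). Ccne2 was lower at 64.1, 57.9 and 60.1 CPM (log2 fold change -0.39, edgeR adjusted p = 4.52e-05), as were E2f8 (log2 fold change -0.30, edgeR adjusted p = 0.00291), Dscc1 (log2 fold change -0.33, edgeR adjusted p = 0.0153), Pola1, the catalytic subunit of polymerase alpha (log2 fold change -0.24, edgeR adjusted p = 0.0265), and Rfc2, a subunit of the clamp loader (log2 fold change -0.21, edgeR adjusted p = 0.0463). The calls of Cdt1 and Rfc2 were lost in 7 and 8 of 18 alternatives, and 15.1% of the exonic length of Rfc2 overlaps a gene on the opposite strand. Mcm2 (0.12), Mcm5 (0.10), Pcna (-0.14), Cdc6 (-0.09), Ccne1 (-0.24) and E2f1 (-0.12) were not called.

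Of the mitotic genes of 6694c2 cells 5 (16.7%) were lower and 5 (16.7%) higher with IFNβ, and the median was 0.00. Of all genes tested 7.86% were lower and 10.4% higher. With the filterByExpr minimum, which leaves out more genes of low count, these shares of all genes were 14.2% and 15.2%, near those of the mitotic genes. The 5 lower were Mki67 and 4 genes of the kinetochore, its checkpoint and the spindle, Nuf2, Ndc80, Ttk and Nusap1. Nuf2, which holds microtubules together with Ndc80, was at 73.8, 73.9 and 76.3 CPM with vehicle and 54.5, 57.3 and 57.7 CPM with IFNβ (log2 fold change -0.40, SE 0.069, edgeR adjusted p = 1.81e-05). Mki67 was at 293, 270.0 and 272 CPM with vehicle and 246, 211 and 199 CPM with IFNβ (log2 fold change -0.35, edgeR adjusted p = 0.000282). The 5 higher were Plk1, Gtse1, Aurka, Cenpe and Tpx2. Plk1 was at 120.2, 113 and 103 CPM with vehicle and 149, 146 and 151 CPM with IFNβ (log2 fold change 0.41, edgeR adjusted p = 8.7e-06), and Gtse1 at 44.7, 44.7 and 41.2 and 55.0, 55.0 and 63.5 CPM (log2 fold change 0.41, edgeR adjusted p = 6.5e-05). The groups overlapped for neither gene. Top2a (-0.07), Cdk1 (0.00) and Ccnb1 (0.08) were not called. The calls of Tpx2 and Ndc80 were lost in 12 and 8 of 18 alternatives, and the 10 calls were 6 without vehicle replicate 2.

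Compared directly in 6694c2 cells, IFNγ gave higher levels than IFNβ for 4 S-phase genes (6.57% of all genes) and lower levels for 2 (7.3%). With the filterByExpr minimum these shares of all genes were 11.8% and 10.7%, and those of the S-phase genes were 13.8% and 6.9%. E2f8 (log2 fold change 0.44, edgeR adjusted p = 1.88e-05), Cdc45, Rpa2 and Ccne1 were higher, and Mcm6 (log2 fold change -0.43, edgeR adjusted p = 4.38e-06) and Gins2 lower. Of the mitotic genes 5 were higher and 1 lower. Top2a (log2 fold change 0.57, edgeR adjusted p = 3.85e-09), Mki67 (log2 fold change 0.48, edgeR adjusted p = 1.41e-06), Cenpf (log2 fold change 0.37, edgeR adjusted p = 0.000772), Nuf2 (log2 fold change 0.31, edgeR adjusted p = 0.000962) and Ttk were higher, and Bub1, a checkpoint kinase, was lower (-0.25).

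With STING agonist 0 S-phase genes and 0 mitotic genes of 6694c2 cells were called by edgeR in either direction (0.156% of all genes were called lower and 0.203% higher). At an unadjusted p-value under 0.05 there were 3 S-phase and 2 mitotic genes, and DESeq2 also called 0 of each. The 95% intervals of all 59 genes lay between -0.34 and 0.37, so a change of 0.5 on the log2 scale was outside every interval. Mcm2 was at 384, 375 and 365 CPM, Pcna at 417, 437 and 407 CPM, Mki67 at 322, 304 and 322 CPM and Ccnb1 at 259.5, 280.4 and 262 CPM. The Mki67 libraries lay above those of vehicle (0.18, edgeR adjusted p = 0.453), and the Mcm2 libraries overlapped them (0.11). The fold changes of Mcm5 (0.01), Cdc6 (-0.13), Ccne1 (0.09), Ccne2 (-0.16), E2f1 (0.09), Top2a (-0.04), Cdk1 (0.00) and Plk1 (0.02) were as small.

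The difference between a treatment's effects in the 2 lines was fitted as an interaction term with all 24 libraries, in which a positive value means a more positive effect in 6694c2 cells. For IFNγ 17 S-phase and 15 mitotic genes had a more positive effect in 6694c2 cells and 0 a more negative one, against 4.52% and 4.95% of all genes. For IFNβ the counts were 11 and 16, with 0 more negative, against 6.16% and 5.9%. For STING agonist 2 S-phase genes were more positive (0.568% of all genes) and 1 mitotic gene was more negative (1.56%). Among the S-phase genes the difference for IFNγ was clearest for Mcm2 (difference of log2 effects 0.59, edgeR adjusted p = 3.41e-07), Uhrf1 (0.68, edgeR adjusted p = 1.87e-06), Rrm2 (0.54, edgeR adjusted p = 3.77e-06) and Mcm3 (0.49, edgeR adjusted p = 0.00013). Ccne2, lower in both lines, also differed (0.43, edgeR adjusted p = 0.016). For IFNβ Mcm6 led (0.53, edgeR adjusted p = 1.58e-05), and all 6 MCM genes differed.

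Among the mitotic genes, Gtse1 (0.74, edgeR adjusted p = 4.9e-07), Tpx2 (0.56, edgeR adjusted p = 1.36e-06), Mki67 (0.82, edgeR adjusted p = 1.19e-05) and Cdc20 (0.51, edgeR adjusted p = 8.84e-05) differed most clearly for IFNγ. For IFNβ these were Ccnb2 (0.90, edgeR adjusted p = 1.32e-10), Cenpa (0.92, edgeR adjusted p = 3.46e-10), Tpx2 (0.64, edgeR adjusted p = 1.35e-07) and Cdc20 (0.71, edgeR adjusted p = 2.26e-07). Mki67 was lower with IFNβ in both lines, and its effect was not called to differ (0.34, edgeR adjusted p = 0.0801, unadjusted 95% interval 0.08 to 0.60). For STING agonist the S-phase genes were Mcm2 (0.37, edgeR adjusted p = 0.00309) and E2f8 (0.48, edgeR adjusted p = 0.0182), and the mitotic gene was Nusap1 (-0.40, edgeR adjusted p = 0.0273). The S-phase count for STING agonist was 1 without B16F10 STING agonist replicate 1 or 3, 6694c2 vehicle replicate 2 or 6694c2 STING agonist replicate 1. The mitotic count was 0 without B16F10 vehicle replicate 3, B16F10 STING agonist replicate 1 or 3, 6694c2 vehicle replicate 2 or 3 or 6694c2 STING agonist replicate 1, and 2 without B16F10 IFNβ replicate 1 or 3.

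**Figure D4:**
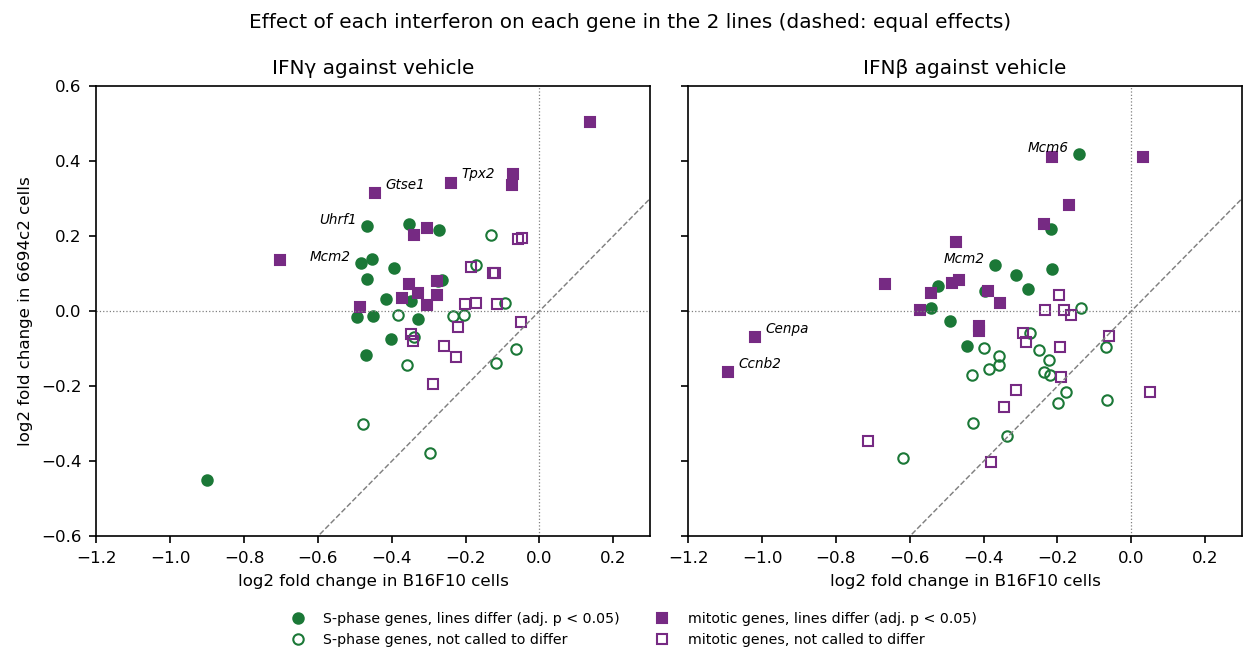
Log2 fold change against vehicle of each S-phase gene (green circles) and mitotic gene (purple squares) in B16F10 cells (x axis) and 6694c2 cells (y axis), for IFNγ (left) and IFNβ (right). Filled symbols mark the 17 and 11 S-phase genes and the 15 and 16 mitotic genes whose effect differed between the lines (interaction, edgeR adjusted p-value under 0.05), and all of these lie above the dashed line of equal effects.

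Other genes of the same pathways, on lists that leave out the 59, were counted beside them. Of 50 other replication genes in B16F10 cells 28 (56%) were lower and 1 (2%) higher with IFNγ, against 10.8% and 12% of all genes, and 24 (48%) and 1 (2%) with IFNβ, against 11.2% and 12.7%, with median log2 fold changes of -0.24 and -0.16. They included the nucleotide enzymes Tk1 (log2 fold change -0.53, edgeR adjusted p = 2.19e-17 with IFNγ) and Dut (log2 fold change -0.51, edgeR adjusted p = 1.05e-14 with IFNβ), the clamp loader subunit Rfc5 (log2 fold change -0.87, edgeR adjusted p = 3.45e-30 with IFNβ) and the primase subunit Prim1 (-0.76). Of 54 other mitotic genes 38 (70.4%) were lower and 0 higher with IFNγ, and 36 (66.7%) and 3 (5.56%) with IFNβ, with medians of -0.22 and -0.27. Spc24, a kinetochore subunit, was at 42.7, 36.8 and 40.8 CPM with vehicle and 13.1, 16.4 and 19.0 CPM with IFNβ (log2 fold change -1.31, edgeR adjusted p = 1.39e-38). With STING agonist 1 (2%) of these replication genes (Rfc5) and 2 (3.7%) of these mitotic genes (Spc24 and Bub3) were lower, against 1.53% of all genes. The share of the 29 S-phase genes that were lower with this agent was 37.9%, which these other replication genes did not share. In 6694c2 cells 10 replication genes (20%) were lower and 1 (2%) higher with IFNγ, against 5.66% and 7.89% of all genes, and 13 (26%) and 2 (4%) with IFNβ, against 7.86% and 10.4%. Of the other mitotic genes there, 3 (5.56%) were lower and 6 (11.1%) higher with IFNγ, shares near those of all genes, and 12 (22.2%) and 2 (3.7%) with IFNβ. Pttg1, the inhibitor of separase that holds sister chromatids together, rose with IFNβ in both lines. It was at 22.3, 21.8 and 23.9 CPM with vehicle and 48.9, 52.1 and 58.0 CPM with IFNβ in B16F10 cells (log2 fold change 1.22, edgeR adjusted p = 2.67e-39), and at 11.8, 15.2 and 13.6 and 31.6, 32.3 and 36.5 CPM in 6694c2 cells (log2 fold change 1.31, edgeR adjusted p = 1.48e-14). With IFNγ it was not called in either line (log2 fold change 0.01 and -0.05).

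Regulators that act before S phase were counted in the same way. Of 20 G1 cyclins, kinases and E2F and MuvB regulators, 11 (55%) were lower and 1 (5%) higher with IFNγ in B16F10 cells, against 10.8% and 12% of all genes. With IFNβ 8 (40%) were lower and 3 (15%) higher, against 11.2% and 12.7%. In 6694c2 cells 1 (5%) was lower and 8 (40%) higher with IFNγ, against 5.66% and 7.89%, and 4 (20%) and 6 (30%) with IFNβ, against 7.86% and 10.4%. Myc, a growth factor-driven activator of the cell cycle, was at 37.3, 33.9 and 30.9 CPM with vehicle, 20.9, 16.7 and 22.2 CPM with IFNγ, 18.3, 21.7 and 19.9 CPM with IFNβ and 26.9, 27.1 and 21.5 CPM with STING agonist in B16F10 cells. All treated libraries lay below those of vehicle (log2 fold change -0.77, -0.77 and -0.43, edgeR adjusted p = 4.59e-15, 3.8e-15 and 0.000157). In 6694c2 cells Myc was at 111, 111 and 112 CPM with vehicle and rose to 193, 207 and 212 CPM with IFNβ (log2 fold change 0.87, edgeR adjusted p = 5.26e-14) and to 126, 122 and 137 CPM with IFNγ (log2 fold change 0.21, edgeR adjusted p = 0.0329). The effect of IFNβ on Myc differed between the lines by 1.61 on the log2 scale (edgeR adjusted p = 1.4e-13). Ccnd1, cyclin D1, was lower with all 3 agents in B16F10 cells (-0.47, -0.44 and -0.31) and higher with IFNγ in 6694c2 cells (log2 fold change 0.30, edgeR adjusted p = 0.000348). The other D cyclins rose with IFNβ in 6694c2 cells, Ccnd2 from 236, 202 and 217 to 386, 398 and 339 CPM (log2 fold change 0.78, edgeR adjusted p = 9.22e-12) and Ccnd3 by as much (0.79). Foxm1, an activator of mitotic genes, was not called with any agent in B16F10 cells (0.04, -0.09 and -0.12) and was higher with both interferons in 6694c2 cells (0.34 and 0.26). Mybl2, which acts with the MuvB complex, was lower with all 3 agents in B16F10 cells (-0.21, -0.31 and -0.25) and not called in 6694c2 cells.

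Of 23 inhibitors and repressors of the cycle that were tested, 9 (39.1%) were higher and 6 (26.1%) lower with IFNγ in B16F10 cells, against 12% and 10.8% of all genes, and 10 (43.5%) and 5 (21.7%) with IFNβ, against 12.7% and 11.2%. Cdkn1b, the kinase inhibitor p27, went from 76.5, 68.9 and 72.1 CPM to 93.5, 105 and 100.2 CPM with IFNγ and 94.0, 86.7 and 92.1 CPM with IFNβ (log2 fold change 0.46, edgeR adjusted p = 5.21e-11 and log2 fold change 0.33, edgeR adjusted p = 4.36e-06). Rb1, which restrains E2F, rose with IFNγ (log2 fold change 0.66, edgeR adjusted p = 2.96e-13) and less with IFNβ (0.32), and Cdkn2c (0.55) and Btg1 (0.79) rose with IFNγ. Cdkn1a, the inhibitor p21, was lower with IFNγ (log2 fold change -0.14, edgeR adjusted p = 0.0361) and higher with IFNβ, at 587, 577 and 580.5 CPM with vehicle and 695, 781 and 812 CPM with IFNβ (log2 fold change 0.39, edgeR adjusted p = 3.89e-12). Gadd45a was higher with all 3 agents (0.55, 0.53 and 0.28). Cdkn3, a phosphatase of this list whose transcript peaks with the mitotic genes, fell by more than 2-fold with IFNβ (log2 fold change -1.24, edgeR adjusted p = 6.4e-32). In 6694c2 cells 4 (17.4%) were higher and 2 (8.7%) lower with IFNγ, against 7.89% and 5.66% of all genes, and 3 (13%) and 5 (21.7%) with IFNβ, against 10.4% and 7.86%. There Cdkn1a was 20.2 ± 0.861 CPM with vehicle and 14.8 ± 0.433 CPM with IFNβ (SD, n = 3 each, log2 fold change -0.44, edgeR adjusted p = 0.000286), Rb1 was lower with IFNβ (log2 fold change -0.44, edgeR adjusted p = 0.000258) and Mxd4, a repressor that competes with Myc for its partner, was lower with both interferons (-0.52 and -1.13). Cdkn1b was not called in 6694c2 cells (0.19, 0.16 and -0.01). None of the 20 regulators or the 23 inhibitors was called with STING agonist in 6694c2 cells, where 0.156% of all genes were lower and 0.203% higher. In B16F10 cells 4 regulators (20%) were lower with it, against 1.53% of all genes, and 1 inhibitor (4.35%) was higher, against 1.93%.

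**Figure D5:**
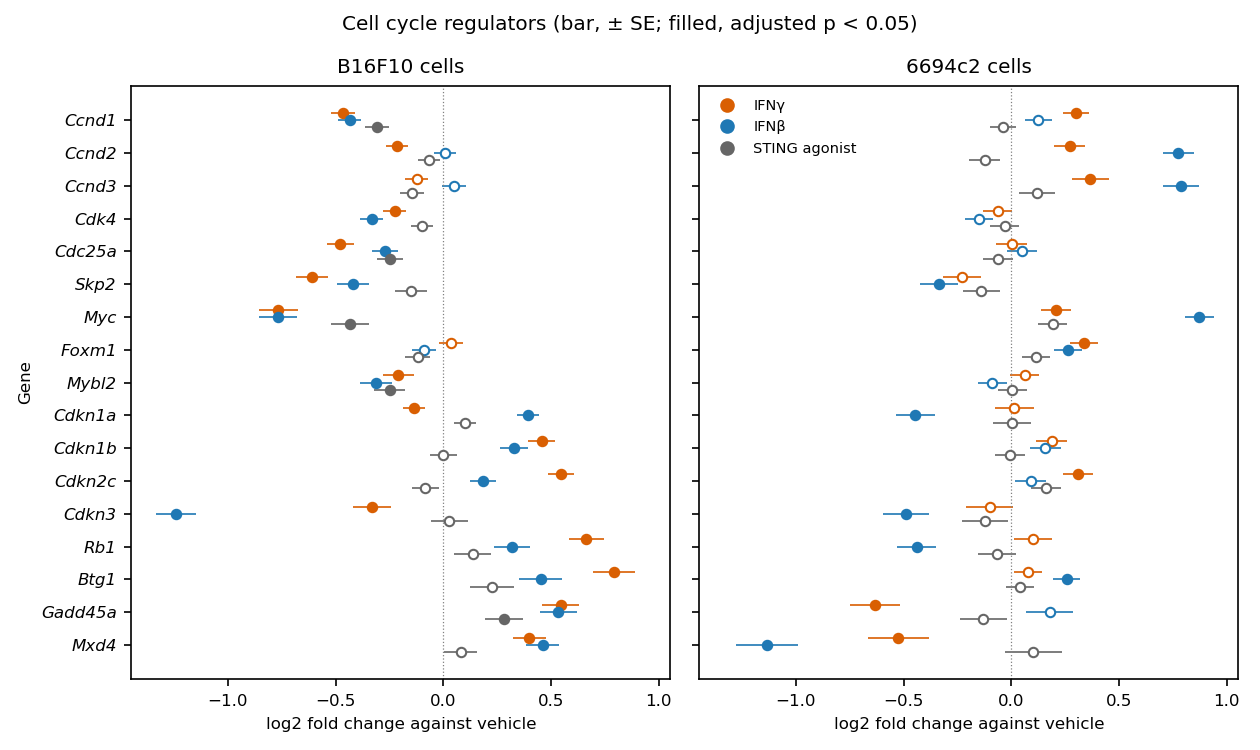
Log2 fold change against vehicle (x axis) with its SE (bars) of 17 cell cycle regulators and inhibitors (y axis) with IFNγ (orange), IFNβ (blue) and STING agonist (grey) in B16F10 cells (left) and 6694c2 cells (right). Filled points mark an edgeR adjusted p-value under 0.05. Myc lies at -0.77 with both interferons in B16F10 cells and at 0.21 and 0.87 in 6694c2 cells.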

How the data were processed

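RNA of B16F10 and 6694c2 cells was sequenced in 24 bulk libraries, 3 for each of 8 groups set by GEO's labels. The authors trimmed reads with cutadapt, aligned them with STAR and counted them per gene with Rsubread. The deposited values are raw gene counts, and the strand setting and annotation release are not given in the sources used here, although 56 of the 59 genes have the coordinates of GENCODE M21 (GRCm38). Overlapping genes can therefore share reads. For 8 of the 59 genes over 10% of the exonic length overlaps another gene. These are Fen1, Gins2, Ube2c, Ccne2, Rfc2, Mcm7, Ccna2 and E2f8. Genes with at least 10 reads over all libraries (21138 of 49315) were tested with edgeR 4.0.16 (R 4.3.3), using TMM factors, the quasi-likelihood F test and Benjamini-Hochberg adjustment over all of them. Each line was fitted on its 12 libraries, and interactions and the comparison of the lines on all 24. The fit was checked on simulated data. Alternatives were DESeq2 1.42.0, a block for replicate number, RLE size factors, fits without a filter or with the filterByExpr minimum, fits on the compared groups alone and leaving out each library. Genes, lists and the motifs were chosen with earlier results of these data known. Named with full statistics were the 4 called genes with the smallest p-values in each comparison and group, 12 preset genes (Mcm2, Mcm5, Pcna, Cdc6, Ccne1, Ccne2, E2f1, Mki67, Top2a, Cdk1, Ccnb1 and Plk1), and for other lists up to 3 called genes and 6 preset regulators. Other genes were named after their values were seen. Single-cell samples of the series are not analysed here.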

Additional observations from a re-analysis of the deposited data

Results flagged for a closer look

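Each result here is a difference between the 2 lines in the effect of the same agent, by the interaction test of edgeR, and the values are the log2 effect in 6694c2 cells minus that in B16F10 cells. With IFNγ 17 S-phase and 15 mitotic genes differed. The S-phase genes with the smallest p-values were Mcm2 (0.59), Uhrf1 (0.68), Rrm2 (0.54) and Mcm3 (0.49), and the mitotic genes were Gtse1 (0.74), Tpx2 (0.56), Mki67 (0.82) and Cdc20 (0.51). In B16F10 cells all 8 were lower with IFNγ than with vehicle. With IFNβ 11 S-phase and 16 mitotic genes differed, led by Mcm6 (0.53), Mcm2 (0.47), Uhrf1 (0.57) and Rrm2 (0.44), and by Ccnb2 (0.90), Cenpa (0.92), Tpx2 (0.64) and Cdc20 (0.71). With STING agonist 2 S-phase genes differed, Mcm2 (0.37) and E2f8 (0.48), and 1 mitotic gene, Nusap1 (-0.40), and this mitotic call was lost when any 1 of 6 libraries was left out.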

How the results depend on the processing

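Of 15576 alternative values of single genes 0 reversed a call, 15026 kept their side of the threshold, 263 lost a call and 287 gained one. Of 272 calls, 77 were lost in at least 1 alternative. In B16F10 cells the 11 S-phase calls with STING agonist became 7 with RLE size factors and 6 with the filterByExpr minimum, and the 2 mitotic calls became 5 in a fit on the compared groups alone. For IFNγ against IFNβ in B16F10 cells the 3 S-phase calls became 1 with DESeq2. In 6694c2 cells with IFNβ the 7 S-phase calls became 11 with DESeq2 and 4 in a fit on the compared groups alone. For the STING agonist interaction the 2 S-phase calls became 4 with DESeq2 and 5 in a fit on the compared groups alone, and the 1 mitotic call became 3, 3, and 2 with the filterByExpr minimum or no filter. The cause was not tested. Leaving out 1 library gave, for S-phase and mitotic genes in B16F10 cells, 23 to 25 and 18 to 22 calls with IFNγ, 21 to 26 and 22 to 27 with IFNβ, 3 to 13 and 1 to 2 with STING agonist, and 0 to 4 and 8 to 14 for IFNγ against IFNβ. In 6694c2 cells it gave 1 to 5 and 5 to 9 with IFNγ, 4 to 7 and 6 to 10 with IFNβ, 0 and 0 with STING agonist, and 4 to 7 and 6 to 8 for IFNγ against IFNβ. For the interactions it gave 14 to 21 and 13 to 19 with IFNγ, 9 to 14 and 15 to 20 with IFNβ, and 1 to 3 and 0 to 2 with STING agonist, and between the vehicle cells 19 to 24 and 22 to 25. The filterByExpr minimum raised the share of all genes called lower in B16F10 cells with IFNγ from 10.8% to 17.2%. Library numbers did not pair the samples, since the median correlation of same-numbered deviations was -0.0041 in B16F10 and -0.0094 in 6694c2 cells, with 3 of 18 pairs over 0.1 in each. A replicate block left 17 S-phase calls in the IFNγ interaction and 22 S-phase and 22 mitotic calls between the vehicle cells, and moved no count by over 1.5 times. The lowest count of a gene in a library was 109 reads (Ccne1 in 6694c2 cells), and its intervals were the widest of the S-phase genes in that line.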
